A study of Macaca fascicularis with 34 samples.

Results

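The 9 single cells taken from the gonads of male cynomolgus monkey fetuses (Macaca fascicularis) were split by their DAZL transcript level, of 34 single cells measured in all. A cell with at least 15 RPM of DAZL, the reads of a gene scaled to a common library size, was placed in the DAZL-positive class, which held 6 cells, and a cell below 15 RPM was placed in the DAZL-low class, which held 3 cells. At embryonic day 36 (E36), 4 cells were DAZL-positive and 2 were DAZL-low. The single E47 cell was DAZL-positive, and of the 2 E55 cells 1 fell in each class. All 9 cells carry the subspecies label fascicularis and no treatment, and the other 25 cells came from embryos of E13 to E20. The labels give sex and stage but name no animal, so each class counts as 1 sample, no test between the classes was possible, and all differences are descriptions of these cells.

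DAZL is an RNA-binding protein of the germ line that holds messenger RNAs in the cytoplasm and promotes their translation. In mammals, primordial germ cells carry pluripotency and specification factors such as POU5F1, NANOG and SOX17 while they migrate, and DAZL and DDX4 appear around the time the cells settle in the gonad. DDX4 is an RNA helicase of germ cell granules, and in mice Dazl is needed for gonadal germ cells to become able to enter sex-specific differentiation.

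The cells of each class were chosen by their measured DAZL level, so its values are given as a description only. At E36, cells 1, 2, 4 and 6 held 160.5, 40.6, 50.8 and 292.9 RPM of DAZL, and cells 3 and 5 held 2.45 and 3.40 RPM. The E47 cell held 146.0 RPM, E55 cell 1 held 21.5 RPM and E55 cell 2 held 7.97 RPM. E55 cells 1 and 2 were thus the cells just inside and just outside the threshold, with 21 and 11 reads. No gonad cell was without DAZL reads, since E36 cells 3 and 5 had 5 and 10 reads. In the 25 embryo cells together, 1 DAZL read was found among 48968284 reads.

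Gonad libraries held 809118 to 2945042 reads, with medians of 2043467 in the DAZL-low and 1039180 in the DAZL-positive class. Between 5233 and 8016 genes reached 15 RPM per cell. Cells were about equally alike within and across classes: over 11625 genes, Spearman's rho between pairs of cells was 0.584 to 0.619 within the DAZL-positive class, 0.578 to 0.602 within the DAZL-low class and 0.571 to 0.638 across classes, given as a description of cells that share a protocol.

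Germ cell markers were present in both classes. POU5F1, the pluripotency factor kept by early germ cells, ranged from 599.5 to 2639 RPM over the DAZL-positive cells, with a median of 1555 RPM. It stood at 1929, 1214 and 1611 RPM in E36 cell 3, E36 cell 5 and E55 cell 2, within the range of the DAZL-positive cells. Summed over 11 germ cell markers other than DAZL, the DAZL-positive cells held 2049 to 5736 RPM and the DAZL-low cells 2774 to 3729 RPM. At least 8 of the 11 markers reached 15 RPM in every gonad cell.

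Markers of somatic gonad cells were also found, and 4 cells had at least 3 markers of 1 somatic cell type at 50 RPM or more. E36 cell 5 (DAZL-low) held 140.6 RPM of WT1 and 330.0 RPM of LHX9, transcription factors of the coelomic epithelium that covers the gonad, and 222.4 RPM of NR2F2, an interstitial factor. E55 cell 2 (DAZL-low) held 57.2 RPM of WT1, 76.0 RPM of DHH, a Sertoli cell ligand, and 212.2 RPM of INHA. The E47 cell (DAZL-positive) held 15703 RPM of INSL3 and 3053 RPM of CYP17A1, products of the steroid-making Leydig cell. E36 cell 1 (DAZL-positive) held GATA4, SOX9 and LHX9 at 257.2, 74.2 and 57.4 RPM. The other 5 cells, E36 cells 2, 3, 4 and 6 and E55 cell 1, did not meet this rule. WT1 had 0 reads in all 5 of them, but other coelomic epithelium and Sertoli markers were found there. Of 8 such markers, 2, 3, 2, 4 and 2 reached 15 RPM in E36 cells 2, 3, 4 and 6 and E55 cell 1. In E36 cells 1 and 5, the E47 cell and E55 cell 2, 3, 4, 6 and 7 did. Over the 8 coelomic epithelium and Sertoli markers the sum was 89.9 to 397.3 RPM in the DAZL-positive cells, with 2 to 6 markers at 15 RPM, and 249.6 to 762.3 RPM in the DAZL-low cells, with 3 to 7 markers at 15 RPM. For 7 interstitial markers the sums were 14.8 to 1195 RPM in the DAZL-positive, 70.0 to 738.9 RPM in the DAZL-low and 4.61 to 13092 RPM in the embryo cells. For 6 Leydig markers they were 1.15 to 20928 RPM in the DAZL-positive and 0.489 to 66.2 RPM in the DAZL-low cells. The 6 blood markers summed to at most 1.24 RPM in the DAZL-positive cells and to at most 55.8 RPM in the DAZL-low cells, the latter from HBG1 in E55 cell 2, and the 5 endothelial markers to at most 278.5 RPM and 61.2 RPM. The part of these somatic transcripts in the differences below was not tested. Values without the 4 cells, given for DDX4 and for gene lists, compare E36 cell 3 as the only DAZL-low cell.

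DDX4, the second marker of gonadal germ cells and not used for the split, followed DAZL at E36. It was chosen with earlier results of these data known, so it is not an independent check of the split. E36 cells 1, 2, 4 and 6 held 87.5, 62.8, 114.0 and 90.2 RPM of DDX4, while E36 cells 3 and 5 held 0 reads. The E47 cell held 60.8 RPM, E55 cell 1 168.1 RPM and E55 cell 2 128.9 RPM. At E36 the classes did not overlap, but E55 cell 2, low in DAZL, had the next highest DDX4 level after E55 cell 1. Summed reads gave 95.1 RPM of DDX4 in the E36 DAZL-positive cells (95% exact Poisson interval 87.8 to 102.7, counting error only) and 0 of 4988509 reads in the E36 DAZL-low cells, which allows up to 0.601 RPM. In mean RPM, DDX4 was at least 71.3-fold higher in the E36 DAZL-positive cells, taking 3 reads in each DAZL-low library as the bound. Over all 9 cells the summed levels were 98.9 RPM (92.4 to 105.7) and 27.9 RPM (24.0 to 32.4). The difference in mean log2(RPM + 1) was 6.45 at E36 and 4.19 over all 9 cells, and 6.69 without the 4 cells with somatic transcripts. The 25 embryo cells had 29 DDX4 reads together, 0.592 RPM. The deposited table places DDX4 (gene ID 101867046) on chromosome 6.

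**Figure D1:**
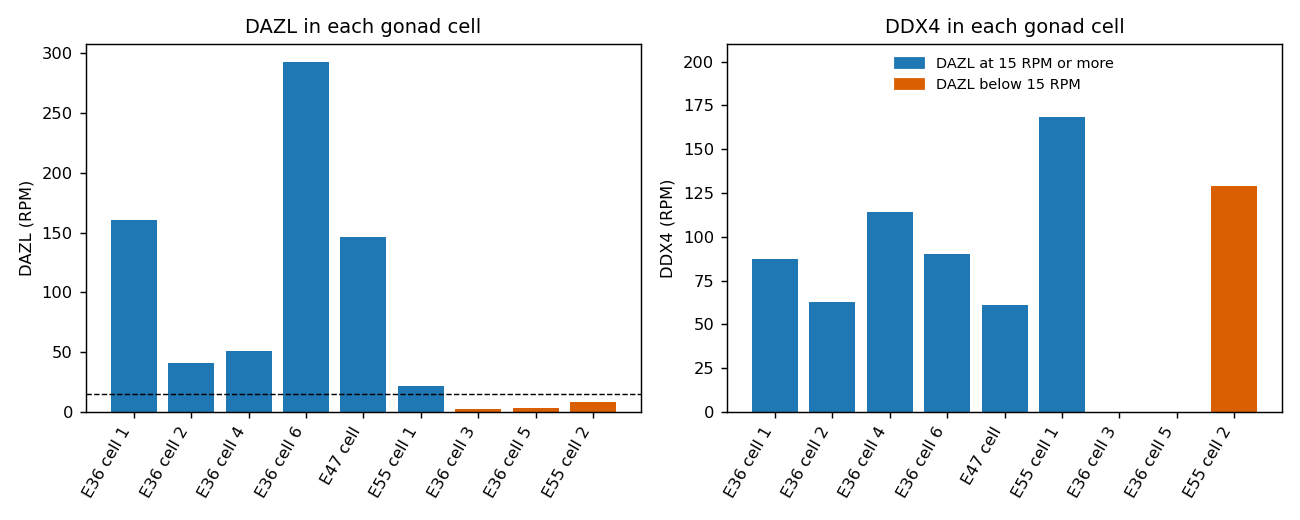
DAZL (left) and DDX4 (right) in RPM in each of the 9 gonad cells, 1 bar per cell, blue for DAZL at 15 RPM or more and orange below it, with the threshold dashed. E36 cells 3 and 5 are at 0 RPM of DDX4, while E55 cell 2 stands at 128.9 RPM of DDX4 with 7.97 RPM of DAZL.

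Over all 9 cells, 13804 genes had a mean of at least 1 RPM in 1 class. Of these, 1957 (14.2%) were at least 2-fold higher in the DAZL-positive cells, as a difference of at least 1 in mean log2(RPM + 1), and 3308 (24%) at least 2-fold lower. With the log2 ratio of mean RPM instead, 3084 were higher and 2849 lower, so which direction held more genes depended on the scale. Few genes kept the classes apart in every cell: 89 (0.645%) were higher and 143 (1.04%) lower in all DAZL-positive cells, of which 73 (0.529%) and 136 (0.985%) also differed 2-fold. Within E36, 2593 of 12225 genes (21.2%) were higher and 3886 (31.8%) lower. Of the 12225, 557 (4.56%) and 875 (7.16%) had no overlap, of which 430 (3.52%) and 787 (6.44%) also differed 2-fold. With fewer cells no overlap is easier to reach, so the larger shares at E36 do not show a clearer split. The log2 ratio of mean RPM gave 3166 higher and 3207 lower at E36, and leaving out E36 cell 5 gave 3865 higher and 3240 lower, which turned the excess. The median difference over all genes was -0.12 over the 9 cells and -0.18 within E36. These shares are the background for the gene lists. Without E55 cell 2, 3127 genes were higher and 3004 lower over all cells, so that this cell decided which direction held more genes.

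The 12 named genes higher in every DAZL-low cell were chosen for that split, so they are described singly and support no theme. RRM2, the small subunit of ribonucleotide reductase that supplies deoxynucleotides for DNA synthesis, stood at 80.8, 191.8 and 145.6 RPM in E36 cell 3, E36 cell 5 and E55 cell 2. In the 6 DAZL-positive cells it ranged from 0 to 13.6 RPM, with a median of 2.04 RPM. Mean RRM2 was 38.0-fold higher in the DAZL-low cells, and the difference in mean log2(RPM + 1) was -5.34 over all cells and -5.38 within E36, as DAZL-positive minus DAZL-low. EXO1, a DNA repair exonuclease, held 107.2, 21.0 and 71.7 RPM in the same order, and at most 13.6 RPM in a DAZL-positive cell, the E47 cell, with 0 reads in the other 5.

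CDCA8, a subunit of the chromosomal passenger complex, held 102.3, 89.6 and 118.1 RPM in E36 cell 3, E36 cell 5 and E55 cell 2, against 0 to 35.8 RPM and a median of 2.25 RPM in the DAZL-positive cells. PRC1, which bundles microtubules of the spindle midzone, held 108.6, 89.3 and 139.1 RPM against 0 to 41.7 RPM. SASS6, which builds the cartwheel of new centrioles, held 84.7, 90.0 and 70.2 RPM against 0 to 34.8 RPM. All 3 kept the classes apart, in each case with 1 or 2 DAZL-positive cells above 15 RPM. CDCA2 and CDCA5, both regulators of mitotic chromosomes, TUBGCP6 of the gamma-tubulin complex, NRM of the nuclear envelope, the deubiquitinase USP33 and the transporter ATP13A3 completed this group, with differences from -5.20 for NRM to -4.33 for CDCA5.

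AMHR2, the receptor for anti-Müllerian hormone, was also among them. It held 55.3, 86.9 and 52.9 RPM in E36 cell 3, E36 cell 5 and E55 cell 2, against 14.9 RPM in E36 cell 1, 21.8 RPM in the E47 cell and 0 in the other 4 DAZL-positive cells. E36 cell 3, which had no WT1, AMH or SOX9 reads but 182.5 RPM of GATA4 and 35.7 RPM of LHX9, held as much AMHR2 as E55 cell 2. No embryo cell exceeded 4.47 RPM.

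The genes most clearly higher in DAZL-positive cells were in none of the 17 gene lists used here. They too were chosen for that split and support no theme. CETN3, a centrin of the centriole, ranged from 48.2 to 216.4 RPM in the DAZL-positive cells, with a median of 105.4 RPM, and stood at 0, 0.340 and 21.0 RPM in E36 cell 3, E36 cell 5 and E55 cell 2. Its difference in mean log2(RPM + 1) was 5.07 over all cells and 6.50 within E36. DZIP3, an RNA-binding ubiquitin ligase, ranged from 43.1 to 207.9 RPM against 1.47, 0.340 and 11.6 RPM. GFPT1, the rate-limiting enzyme of hexosamine synthesis, ranged from 39.3 to 150.6 RPM against 0, 5.09 and 13.8 RPM.

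SLC2A1, the glucose transporter GLUT1, ranged from 37.9 to 243.1 RPM in the DAZL-positive cells, where the E47 cell was highest, and held 0.979, 27.8 and 1.45 RPM in E36 cell 3, E36 cell 5 and E55 cell 2. The ribosome assembly GTPase LSG1 ranged from 4.23 to 77.9 RPM against 0, 1.02 and 0.724 RPM. The LIM-domain gene PDLIM3, CCDC90A, the Elongator subunit IKBKAP and the peptidase XPNPEP1 were also named. So were the FAD synthase FLAD1, the protease ADAMTS15 and the TFIID subunit TAF7. Differences of these genes ran from 5.04 for CCDC90A to 2.88 for TAF7. Of these, IKBKAP, XPNPEP1 and TAF7 were at 0, 0 and 0.979 RPM in E36 cell 3 but at 42.7 RPM or more in both other DAZL-low cells.

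**Figure D2:**
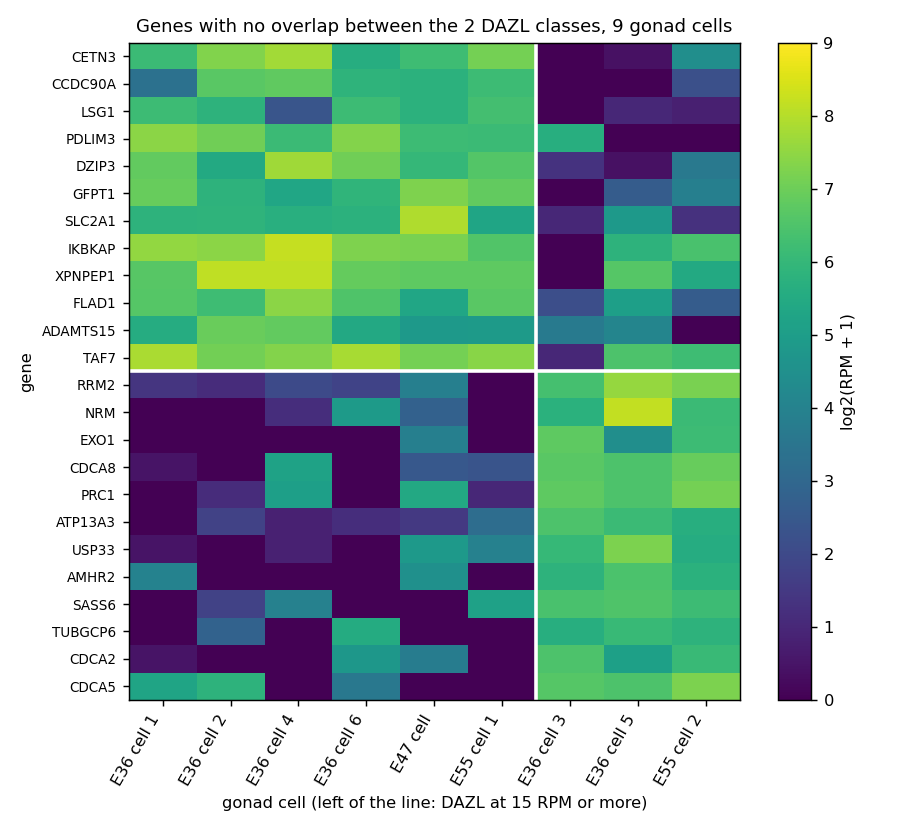
Level in log2(RPM + 1), as colour, of the 24 named genes (rows) in the 9 gonad cells (columns), DAZL-positive cells left of the vertical line. The upper 12 genes were higher in every DAZL-positive cell and the lower 12 in every DAZL-low cell, from RRM2 (difference -5.34) to CDCA5 (-4.33).

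DNA replication genes were higher in all 3 DAZL-low cells than in the E36 DAZL-positive cells. Averaged over 25 genes of the replication machinery, log2(RPM + 1) was 4.88 in E36 cell 3, 5.31 in E36 cell 5 and 6.25 in E55 cell 2. E36 cells 1, 2, 4 and 6 held 3.56, 3.84, 3.46 and 3.61, while the E47 cell and E55 cell 1 held 5.01 and 5.10. The gap between the classes was therefore seen within E36 and within the E55 pair, and the later DAZL-positive cells overlapped with E36 cell 3. At E36, 18 and 21 of the 25 genes reached 15 RPM in the DAZL-low cells and 12 or 13 in the DAZL-positive cells.

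Within E36, 16 of the 25 replication genes were at least 2-fold lower and 6 at least 2-fold higher in DAZL-positive cells, beside 31.8% and 21.2% of all genes, and the median difference was -1.69. With the 2 members that had a class at 0 set to their bounds it was -1.53. Over all 9 cells 14 were lower and 3 higher, beside 24% and 14.2%, with a median of -1.35. The median stayed negative under every alternative tried, and was -1.83 within E36 and -1.44 over all cells without the 4 cells with somatic transcripts. With the DAZL threshold at 5 RPM, which moves E55 cell 2 to the DAZL-positive class, the median over all cells was -0.66.

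GINS1, a subunit of the replicative helicase complex, held 53.4, 1.23, 38.9 and 29.7 RPM in E36 cells 1, 2, 4 and 6, and 128.7 and 152.5 RPM in E36 cells 3 and 5. The helicase subunit MCM7 held 34.9, 30.8, 36.6 and 38.3 RPM against 114.5 and 77.4 RPM. ORC1, which marks replication origins, held 0.803, 2.46, 0.385 and 34.6 RPM against 49.4 and 38.0 RPM. These genes kept the E36 classes apart, as did RRM1, RRM2 and the S-phase transcription factor E2F1, which held at most 2.46 RPM in E36 DAZL-positive cells and 35.2 and 27.5 RPM in E36 cells 3 and 5. In E55 cells 1 and 2, E2F1 held 50.2 and 38.4 RPM, so its order did not hold there. PCNA, the sliding clamp, was abundant in all 9 cells, from 149.5 to 768.5 RPM, and its classes overlapped. FEN1, CCNE2, CDT1, CDC6, MCM4 and ORC6 were the 6 members at least 2-fold higher in E36 DAZL-positive cells.

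Mitosis genes were high in 2 of the 3 DAZL-low cells only. Averaged over 25 genes, log2(RPM + 1) was 6.69 in E36 cell 5 and 6.35 in E55 cell 2, with 25 and 24 members at 15 RPM. E36 cell 3 stood at 3.24 with 11 members at 15 RPM, inside the range of the DAZL-positive cells, 2.52 to 4.26 with 7 to 16 members. Both cells high in mitosis genes were also cells with somatic transcripts, and the part of those transcripts was not tested. E36 cell 1 and the E47 cell, which also had somatic transcripts, stood at 3.57 and 4.26. The embryo cells had a median of 5.79 and ranged from 1.44 to 8.32.

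MKI67, a marker of cycling cells, held 111.0 RPM in E36 cell 5 and 210.8 RPM in E55 cell 2, 0 reads in E36 cell 3, and at most 8.83 RPM in the DAZL-positive cells. TOP2A, the topoisomerase that untangles chromosomes, held 613.2 and 708.3 RPM in E36 cell 5 and E55 cell 2 but 12.2 RPM in E36 cell 3, below every DAZL-positive cell (29.7 to 257.2 RPM). Both genes thus placed E36 cell 3 with or below the DAZL-positive cells.

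BUB1, CCNB1 and CDK1 did not, and were higher in all 3 DAZL-low cells than in any DAZL-positive cell. The spindle checkpoint kinase BUB1 held 121.9, 121.9 and 108.6 RPM in E36 cell 3, E36 cell 5 and E55 cell 2 against 0.385 to 73.8 RPM in the DAZL-positive cells. Cyclin B1 (CCNB1) held 78.8, 136.5 and 215.8 RPM against 1.54 to 72.9 RPM, and its partner kinase CDK1 63.1, 130.4 and 170.2 RPM against 1.23 to 37.2 RPM. They were the 3 of 25 members that kept the classes apart over all cells, beside 1.04% of all genes in that direction.

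Over all 9 cells, 20 of 25 mitosis genes were at least 2-fold lower in the DAZL-positive cells and 0 were higher, beside 24% and 14.2% of all genes, and the median difference was -1.69. Within E36, 19 were lower and 0 higher, beside 31.8% and 21.2%, with a median of -1.83. These values depended on which DAZL-low cells were used. Over all cells the median was -3.19 without E36 cell 3 and -0.99 without E36 cell 5, and within E36 it was -3.37 without cell 3 and 0.61 without cell 5. Without the 4 cells with somatic transcripts it was 0.78 over all cells and 0.39 within E36.

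**Figure D3:**
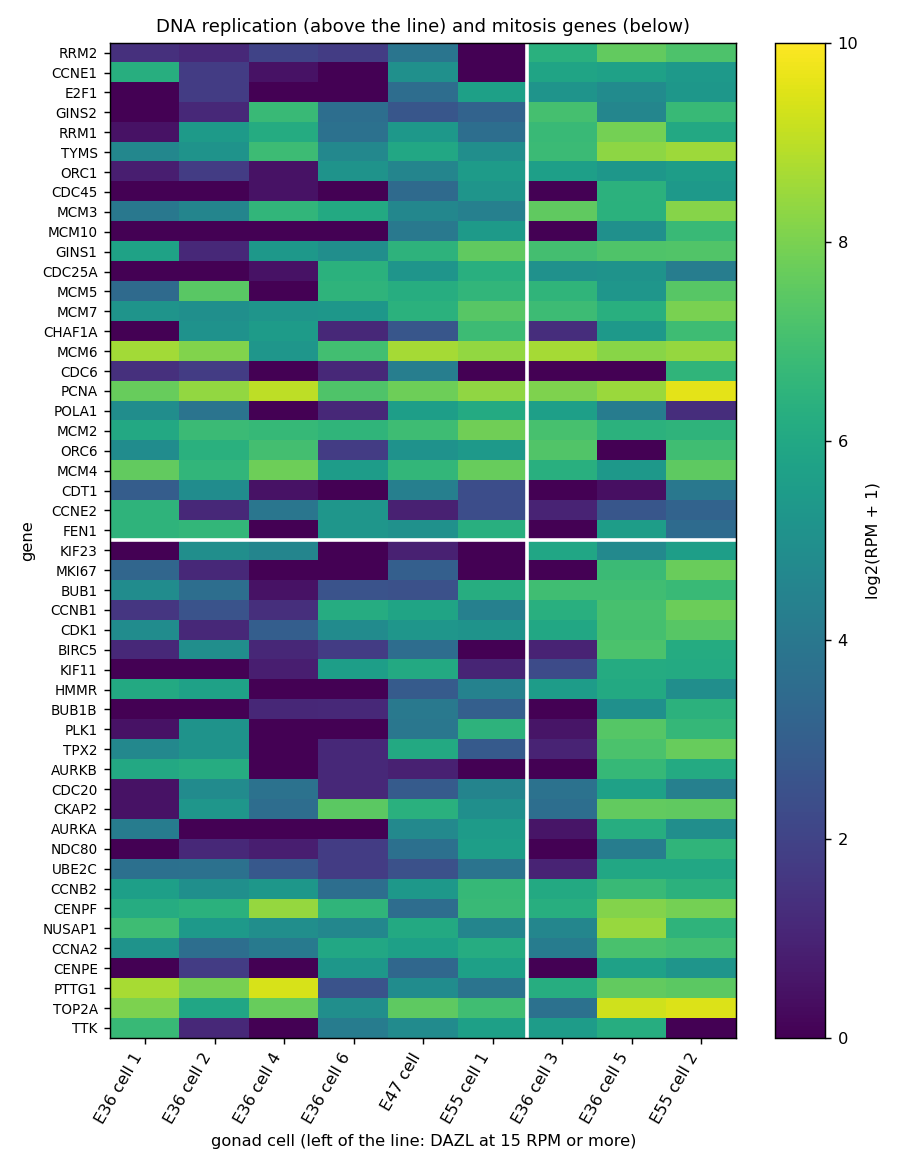
Level in log2(RPM + 1), as colour, of 25 DNA replication genes (above the horizontal line) and 25 mitosis genes (below it) in the 9 gonad cells, DAZL-positive cells left of the vertical line, genes ordered within each list by their difference. E36 cell 5 and E55 cell 2 are high in both lists, while E36 cell 3 reaches 15 RPM in 18 replication genes and 11 mitosis genes.

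Genes of cell cycle arrest and the p53 response differed between single cells more than between classes. Of 20 measured members, 1 was higher and 4 lower over all cells, beside 14.2% and 24% of all genes. The median difference was -0.21, and it was -1.49 when E36 cell 3 was left out and 0.69 when E55 cell 2 was. E55 cell 2 held 258.6 RPM of CDKN1A, the p21 inhibitor of cyclin-dependent kinases, 386.8 RPM of MDM2 and 160.1 RPM of BTG2, all p53 targets. CDKN1A and BTG2 had 0 reads in all 6 E36 cells and in E55 cell 1, and MDM2 did not exceed 61.6 RPM in any other gonad cell. CDKN1C, the p57 inhibitor, held 2058 RPM in the E47 cell and 103.2 RPM in E36 cell 5.

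Among germ cell specification genes, the largest difference was in T (brachyury), a mesoderm factor switched on as primordial germ cells form. T held 197.0, 190.9, 237.9 and 102.6 RPM in E36 cells 1, 2, 4 and 6 and 48.0 and 6.79 RPM in E36 cells 3 and 5. It held 35.4 RPM in the E47 cell, 118.9 RPM in E55 cell 1 and 0 in E55 cell 2. The E36 classes were apart, with a difference of 3.17 in mean log2(RPM + 1), and over all 9 cells the E47 cell overlapped with E36 cell 3, with a difference of 4.13.

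SOX17, the endoderm factor that specifies primate germ cells, held 358.0, 559.1, 420.8 and 469.6 RPM in the E36 DAZL-positive cells and 188.4 and 355.5 RPM in E36 cells 3 and 5, so that cells 1 and 5 were nearly level. SOX15 and the receptor KIT were also apart at E36, with differences of 0.61 and 1.02. In E55 cell 2 KIT was at 673.6 RPM, the highest of the 9 cells. TFAP2C and PRDM1, partners of SOX17, overlapped between the classes, with differences of -0.52 and 0.19 at E36. Over 16 measured members at E36, 5 were at least 2-fold higher and 2 lower in the DAZL-positive cells, beside 21.2% and 31.8% of all genes. Their median was 0.24. Over all cells 1 of 17 was higher and 1 lower, beside 14.2% and 24%, with a median of 0.11. Without the 4 cells with somatic transcripts the medians were 0.36 and 0.16.

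Pluripotency genes overlapped in most cases. NANOG held 1323, 1278, 1157 and 1121 RPM in the E36 DAZL-positive cells and 908.8 and 647.2 RPM in E36 cells 3 and 5, and E55 cells 1 and 2 held 1183 and 479.5 RPM. Only the E47 cell, at 552.4 RPM, kept the classes from being apart over all 9 cells. DPPA5 had 0 reads in all 3 DAZL-low cells, and 189.4, 1.23, 100.9, 8.65, 7.26 and 0 RPM in E36 cells 1, 2, 4 and 6, the E47 cell and E55 cell 1. TCL1B and DPPA4 were higher in the E36 DAZL-positive cells, with differences of 1.06 and 1.16 and no overlap, and DNMT3L was lower. The RNA-binding LIN28B pointed the other way, at 67.5 and 86.2 RPM in E36 cells 3 and 5 and at 0, 0, 6.16 and 158.2 RPM in E36 cells 1, 2, 4 and 6. Of 22 measured members at E36, 6 were higher and 6 lower, beside 21.2% and 31.8% of all genes, with a median of 0.46 that became -0.13 without E36 cell 5. Over all cells 4 of 23 were higher and 3 lower, beside 14.2% and 24%, with a median of 0.41.

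Other late germ cell RNA-binding genes did not follow DAZL as a group. Of 18 measured members, which include DDX4, 4 were higher and 3 lower at E36, beside 21.2% and 31.8% of all genes, with a median of -0.03, or -0.087 without the 4 cells with somatic transcripts. Leaving out E36 cell 6 gave -0.16, and leaving out E36 cell 2 gave 0.20. DPPA3, the Stella protein of germ cells and oocytes, held 151.7, 69.0, 55.4 and 208.9 RPM in the E36 DAZL-positive cells and 24.96 and 11.9 RPM in E36 cells 3 and 5, but 132.5 RPM in E55 cell 2 against 53.3 RPM in E55 cell 1. CPEB1, which controls the poly(A) tail of stored messenger RNA, was higher in both DAZL-low cells at E36 only, and E55 cell 1 exceeded E55 cell 2. It held 69.8, 11.1, 29.6 and 65.5 RPM in the E36 DAZL-positive cells, 252.5 and 189.5 RPM in E36 cells 3 and 5, and 223.4 and 183.2 RPM in E55 cells 1 and 2. IGF2BP3 was likewise lower in all 4 E36 DAZL-positive cells, with a difference of -2.64. DAZAP1, a partner of DAZL, was apart at E36 with a difference of 1.11. NANOS3, needed for germ cell survival, overlapped, at 24.7 to 198.3 RPM in the E36 DAZL-positive cells and 74.4 and 14.6 RPM in E36 cells 3 and 5.

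The piRNA pathway, which silences transposons in male germ cells, was detected in both classes and kept no class apart. PIWIL2 ranged from 7.42 to 200.7 RPM in the DAZL-positive cells and stood at 43.1, 3.74 and 73.9 RPM in E36 cell 3, E36 cell 5 and E55 cell 2. RNF17 was at 0 in E36 cells 3 and 5, but also in E36 cells 1 and 6. Of 17 measured members over all cells, 4 were higher and 4 lower, beside 14.2% and 24% of all genes. The median was 0.56, or 0.00 with members at 0 in a class set to their bounds. Of 11 at E36, 5 were higher and 4 lower, beside 21.2% and 31.8%, with a median of 0.75, or 0.65 with bounds. Without the 4 cells with somatic transcripts the medians were 0.93 over all cells and 0.96 at E36.

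Meiosis genes were near the detection limit in most cells. SPATA22, which acts in meiotic recombination, was an exception at 56.9 to 201.9 RPM in the DAZL-positive cells. It held 65.1, 6.45 and 53.6 RPM in E36 cell 3, E36 cell 5 and E55 cell 2. MLH3, another exception, held 39.4 to 95.2 RPM in the DAZL-positive cells. In the DAZL-low cells it held 75.4, 81.8 and 76.0 RPM in the same order. It was the 1 measured member that kept the E36 classes apart, lower in the DAZL-positive cells with a difference of -0.74. SYCP3, a protein of the chromosome axis, held 69.0, 0, 38.5 and 64.3 RPM in the E36 DAZL-positive cells and 0 and 18.0 RPM in E36 cells 3 and 5. At E36, 7 of 13 measured members were higher and 3 lower, beside 21.2% and 31.8% of all genes. Of the 13, 7 had a class at 0 reads. The median was 1.16, or 0.18 with bounds, and -0.12 without E36 cell 2. The median over all cells was 0.14, or 0.00 with bounds, and -0.61 without the E47 cell.

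**Figure D4:**
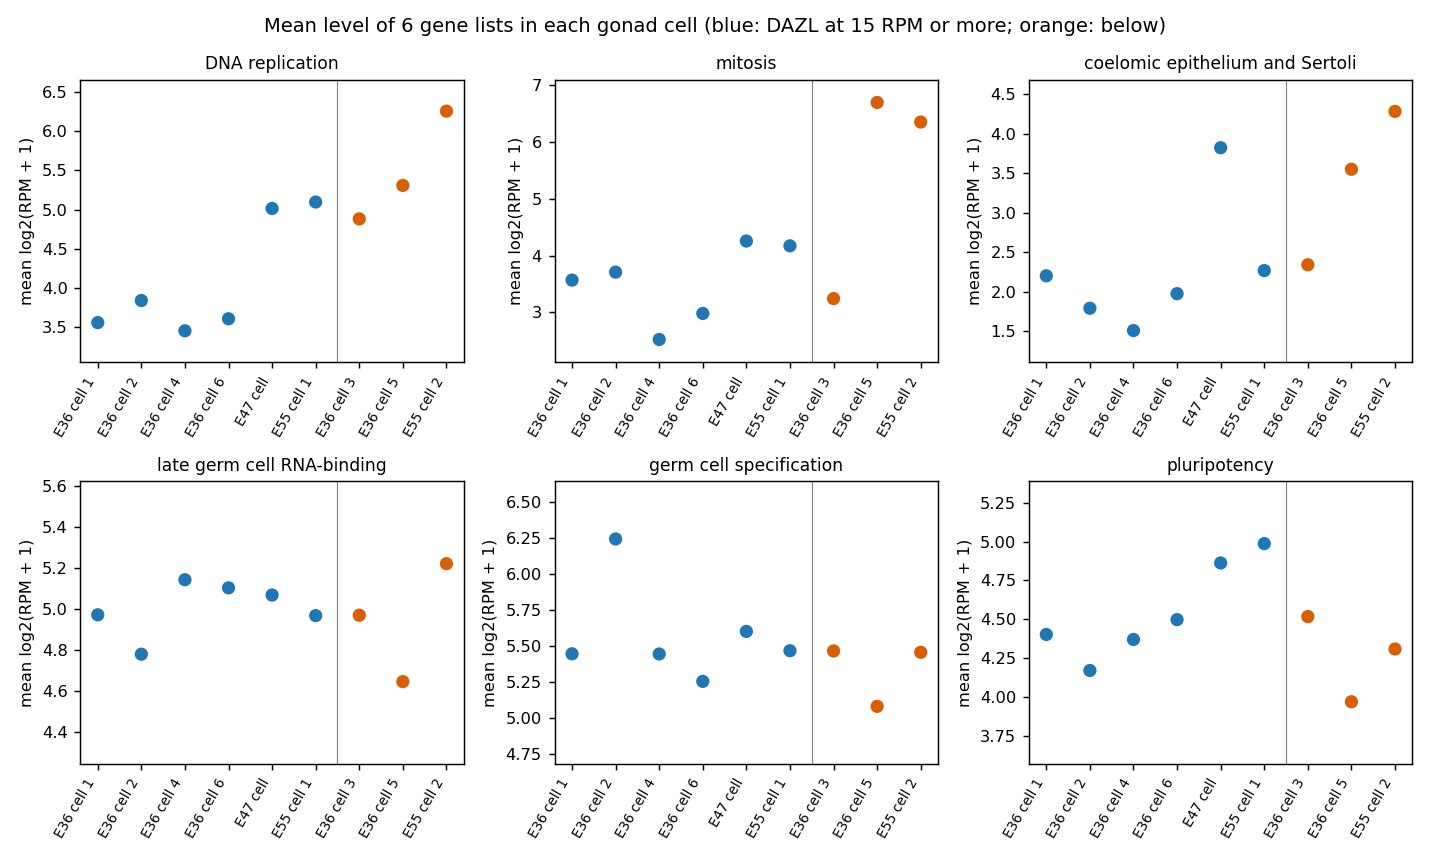
Mean log2(RPM + 1) of 6 gene lists (panels) in each of the 9 gonad cells, blue for DAZL at 15 RPM or more and orange below it, 1 point per cell and vertical scales that differ and do not start at 0. DNA replication is at 3.46 to 3.84 in the E36 DAZL-positive cells and 4.88 or more in the DAZL-low cells, while mitosis places E36 cell 3 at 3.24.

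Single DNA methylation genes differed within E36 in opposite directions. The maintenance methyltransferase DNMT1 held 0.401, 8.62, 29.6 and 2.47 RPM in the E36 DAZL-positive cells and 52.4 and 60.8 RPM in E36 cells 3 and 5. In E55 cells 1 and 2 it held 10.2 and 88.4 RPM, and only the E47 cell, at 59.9 RPM, overlapped. The de novo enzyme DNMT3A and its cofactor DNMT3L were also lower in all 4 E36 DAZL-positive cells, with differences of -2.97 and -2.81. In E55 cells 1 and 2, DNMT3A held 2.05 and 1.45 RPM and DNMT3L 100.4 and 120.2 RPM.

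UHRF1, which guides DNMT1 to replicated DNA, was the reverse. It held 21.3, 12.3, 1.16 and 4.94 RPM in the E36 DAZL-positive cells against 0.489 and 1.02 RPM in E36 cells 3 and 5, low levels in every cell. USP7, which stabilises DNMT1 and UHRF1, held 49.4 to 256.8 RPM against 1.47 and 32.9 RPM. In E55 cells 1 and 2, UHRF1 held 6.15 and 22.5 RPM, so its order did not hold there. USP7 was nearly level in them, at 139.4 and 134.0 RPM. The dioxygenase TET1 overlapped, at 45.6 to 239.8 RPM against 165.9 and 116.1 RPM. Of 16 members at E36, 2 were higher and 6 lower, beside 21.2% and 31.8% of all genes, with a median of -0.06. The 6 lower members, DNMT1, DNMT3A, DNMT3L, TET2, GADD45A and MBD3, all kept the E36 classes apart, beside 7.16% of all genes. Over all cells 2 were higher and 6 lower, beside 14.2% and 24%, with 0 apart. Without the 4 cells with somatic transcripts the medians were -0.47 over all cells and -0.43 at E36.

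Among chromatin genes the median was -0.07 over all cells and 0.30 within E36, where 7 of 30 were higher and 2 lower, beside 21.2% and 31.8% of all genes. Without E36 cell 3 the E36 median was -0.26, and without the 4 cells with somatic transcripts the medians were 0.17 and 0.16. The heterochromatin protein gene CBX3 was higher in every DAZL-positive cell, at 335.6 to 609.2 RPM against 296.1, 174.5 and 224.5 RPM, and so was the H3K9 demethylase gene KDM3A, at 78.8 to 117.9 RPM against 78.3, 35.7 and 60.1 RPM. Both differences, 0.82 and 0.79, were under 2-fold. PRMT5, an arginine methyltransferase required in germ cells, was apart at E36 with a difference of 1.36, and its range over all DAZL-positive cells was 70.4 to 326.9 RPM against 59.2, 62.5 and 75.3 RPM. EZH2, the H3K27 methyltransferase, held 37.7, 78.8, 0.385 and 71.7 RPM in the E36 DAZL-positive cells against 127.2 and 88.6 RPM in E36 cells 3 and 5.

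Coelomic epithelium and Sertoli genes were on average higher in the DAZL-low cells, but the DAZL-positive E47 cell exceeded 2 of the 3 DAZL-low cells. The mean log2(RPM + 1) over 21 genes was 2.34, 3.55 and 4.28 in E36 cell 3, E36 cell 5 and E55 cell 2. It was 1.51 to 2.203 in the E36 DAZL-positive cells, 3.82 in the E47 cell and 2.27 in E55 cell 1. The embryo cells ranged from 1.75 to 2.76 with a median of 2.21, and E36 cell 3 was within that range. Of 19 measured members 11 were at least 2-fold lower in the DAZL-positive cells and 2 higher, beside 24% and 14.2% of all genes, with a median of -1.05. With the DAZL threshold at 5 RPM the median was -0.074. That median was -1.71 without E36 cell 3, -1.65 without the E47 cell, -0.41 without E55 cell 2 and -0.56 without the 4 cells with somatic transcripts. Within E36, 10 of 16 were lower and 1 higher, beside 31.8% and 21.2% of all genes, with a median of -1.24 that was -0.66 without E36 cell 5.

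KITLG, the ligand of the KIT receptor, kept the classes apart, at 7.34, 46.2 and 52.2 RPM in E36 cell 3, E36 cell 5 and E55 cell 2 and at most 3.85 RPM in a DAZL-positive cell. The polycomb gene CBX2 held 55.3 and 123.9 RPM in E36 cells 3 and 5 against 0 to 54.98 RPM in the E36 DAZL-positive cells, so that cells 1 and 3 were nearly level. SOX9, a transcription factor of Sertoli cells, went the other way at E36. It held 74.2, 11.1, 84.3 and 48.2 RPM in the DAZL-positive cells and 0 and 2.72 RPM in E36 cells 3 and 5, a difference of 4.52.

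The interstitial list gave no stable direction. At E36 its median of -1.25 became -3.30 without E36 cell 3 and 0.98 without E36 cell 5, and over all cells it was -0.30. TCF21, a transcription factor of gonadal mesenchyme, was the clearest member, with 0 reads in all 4 E36 DAZL-positive cells and 62.6 and 45.5 RPM in E36 cells 3 and 5, at least 22.2-fold higher in mean RPM. E55 cells 1 and 2 held 1.02 and 0 RPM. The Leydig and the endothelial and blood lists had under 10 measured members at E36 and are given by gene. Outside the E47 cell, INSL3 did not exceed 5.79 RPM and STAR reached 65.9 RPM in E36 cell 5 only. The receptor KDR, at 15 RPM or more also in 22 of the 25 embryo cells, held 278.5, 61.6, 163.6 and 114.9 RPM in E36 cells 1, 2, 4 and 6 and 61.2 and 30.9 RPM in E36 cells 3 and 5.

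Oxidative phosphorylation, cell stress and migration lists had medians near 0 in both comparisons. Over 42 oxidative phosphorylation genes the median was 0.07 over all cells and 0.06 at E36. At E36, 4 were higher and 2 lower, beside 21.2% and 31.8% of all genes. The stress list gave 0.34 and 0.20, the latter becoming -0.56 without E36 cell 3. In the migration list, with medians of 0.21 and 0.22, the tetraspanin CD9 was apart at E36 at 129.3 to 293.0 RPM against 100.8 and 71.7 RPM. CXCR4, the receptor that guides germ cells to the gonad, overlapped, at 124.7 to 323.9 RPM against 291.2 and 284.9 RPM.

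**Figure D5:**
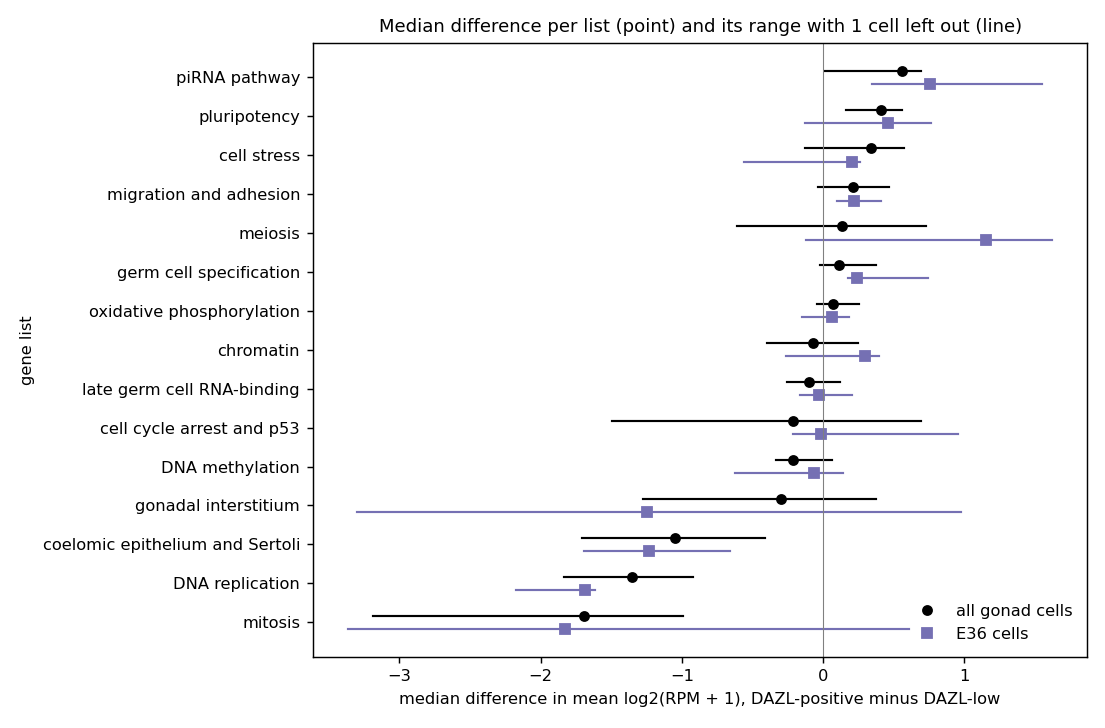
Median difference in mean log2(RPM + 1) over the measured members of 15 gene lists, DAZL-positive minus DAZL-low (circles, all 9 gonad cells; squares, 6 E36 cells), with lines for the range when 1 cell at a time was left out. DNA replication and the coelomic epithelium and Sertoli list stay below 0 throughout, while mitosis at E36 runs from -3.37 to 0.61.

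Within E36, where stage does not differ, further genes were named for having no overlap and the largest differences. Their nearly all-or-none levels follow from that choice, so they are described singly and support no theme. FHL2, a LIM-domain cofactor, held 205.1, 381.8, 60.8 and 126.1 RPM in cells 1, 2, 4 and 6 and 0.979 and 0.679 RPM in cells 3 and 5. In the later cells it held 26.3, 0 and 21.0 RPM in the E47 cell, E55 cell 1 and E55 cell 2, so the split was seen at E36 alone. KDM4DL, a copy of the KDM4 demethylase family whose reads may be shared with its relatives, held 149.3, 61.6, 37.0 and 46.96 RPM against 0 reads in cells 3 and 5, at least 59.3-fold higher. COPG2, a coatomer subunit, held 106.8, 25.9, 45.4 and 35.8 RPM against 0 reads. UTP3, NKRF, EDEM2, C1orf212 and PLEKHA1 were higher with differences from 5.83 to 4.95, beside CETN3, DZIP3, IKBKAP and DDX4.

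In the other direction, TRAF3, a signalling adaptor, held 128.2 and 118.2 RPM in E36 cells 3 and 5 and 0, 0, 0.385 and 3.71 RPM in cells 1, 2, 4 and 6. CPPED1, a phosphatase, held 199.2 and 78.4 RPM against at most 1.24 RPM, and the kinase PRKD3 195.3 and 56.4 RPM against at most 2.47 RPM. The centromere gene CENPW held 78.3 and 140.6 RPM against at most 1.54 RPM, and CENPV, named for the centromere, 86.1 and 238.0 RPM against 0 in 3 cells and 51.7 RPM in cell 2. GSTA3, a glutathione transferase of a gene family with close copies, had 0 reads in cells 1, 2, 4 and 6 and 41.6 and 154.2 RPM in cells 3 and 5, at least 40.1-fold higher. It also held 780.0 RPM in the E47 cell and 162.2 RPM in E55 cell 2. AMOT, SMARCA1, CBLN2, FLJ36031, USP33 and TCF21 completed the group, with differences from -6.32 to -5.77.

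Among the 6 DAZL-positive cells, stage went with large differences of its own. Of 13396 genes, 1318 (9.84%) were at least 2-fold higher in the 4 E36 cells and 6289 (46.9%) higher in the E47 and E55 cells, with a median over all genes of -0.89. With no overlap, 479 (3.58%) were higher and 1789 (13.4%) lower at E36, of which 254 (1.9%) and 1689 (12.6%) also differed 2-fold. With the E47 cell left out, 2514 genes were at least 2-fold higher and 5218 lower at E36, and 762 were higher with no overlap. DAZL-positive cells of E36 had 5233 to 5767 genes at 15 RPM, and the E47 cell and E55 cell 1 had 8016 and 6842. The genes named by stage were likewise chosen for having no overlap between the stages. GDF3, a TGF-beta ligand of pluripotent cells, had 0 reads in all 4 E36 cells and 61.7 and 115.8 RPM in the E47 cell and E55 cell 1, at least 36.4-fold higher in mean RPM. XAGE5, a cancer-testis family gene on the X chromosome, held 0.401, 0, 0 and 0 RPM in E36 cells 1, 2, 4 and 6 and 155.1 and 117.8 RPM in the E47 cell and E55 cell 1. It also held 62.1 RPM in E36 cell 5, 101.4 RPM in E55 cell 2 and 0 in E36 cell 3. SPOP, a ubiquitin ligase adaptor, had 0 reads in the 4 E36 DAZL-positive cells and 99.8 and 72.8 RPM in the later ones, but the DAZL-low cells went against stage, with 41.1 and 43.5 RPM in E36 cells 3 and 5 and 11.6 RPM in E55 cell 2.

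CDKN1C, CYP11A1 and IGFBP7 were higher at the later stages mainly through the E47 cell, with 2058, 992.3 and 1262 RPM there and 36.9, 19.5 and 32.8 RPM in E55 cell 1. C1orf51, KDM4DL, ARID5B, FHL2, SOSTDC1 and BACE2 were higher in the E36 cells. ARID5B, for example, held 219.9, 38.2, 52.4 and 69.2 RPM in the E36 DAZL-positive cells and 3.63 and 0 RPM in the E47 cell and E55 cell 1. The DAZL-low cells did not follow this order by stage, with 13.2 and 97.5 RPM of ARID5B in E36 cells 3 and 5 and 58.7 RPM in E55 cell 2. C1orf51 and SOSTDC1 likewise held 48.5 and 93.4 RPM in E55 cell 2. With 1 cell at E47 and 2 at E55, stage, animal and cell cannot be told apart.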

How the data were processed

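Single-cell cDNA was amplified and read as 3' tags (SC3-seq) on the SOLiD system, per the labels' protocols. Cutadapt 1.3, TopHat 1.4.1 and Cufflinks 2.2.0 are named in the submitters' processing notes, with no role, and the genome build is not given in the sources used here. Deposited by the authors was 1 table of log2(RPM + 1) values for 28551 genes, 17683 of them with a human symbol, the name used here. RPM was recovered as 2 to the power of the value, less 1, and reads from the most frequent lowest step. At least 99.8% of values below 200 reads came out within 0.1 of a whole read, and each cell's RPM summed to 992739 or more. How doublets or free RNA were treated is not given, and no doublets were called. Reads were not deduplicated by molecular identifiers as far as the labels say, so intervals and limits cover counting error only.

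Cells were grouped by stage from the labels and by DAZL at 15 RPM. The members and gene lists were chosen with earlier results of these data known. DAZL was left out of every count and list. A gene was measured at a mean of 1 RPM in 1 class, and differences of mean log2(RPM + 1), DAZL-positive minus DAZL-low, were counted from 1 in size. These differences understate the change of low genes. A fold against a class at 0 used 3 reads per library. Named genes averaged 50 RPM or more in their higher class, reached 15 RPM in at least 80% of its cells and did not overlap, and the 12 largest differences each way were taken (6 for stage); list members may also be named. For 17 gene lists the median and counts are given beside those of all genes; 2 lists with under 10 measured members at E36 are given by gene, a choice made after seeing the data. Alternatives changed the pseudocount, the summary, the filter, the depth (thinned to 804535 reads), the scaling, the DAZL threshold and the cells used. The calculation was tested on simulated data with known changes. Python 3.11.15, pandas 2.3.3 and numpy 2.4.6 were used. RefSeq sequences are not analysed here.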

Additional observations from a re-analysis of the deposited data

Results flagged for a closer look

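Among 145 groups of 6 cells screened, either the 6 E36 cells or the 6 DAZL-positive cells, 32 had 1 cell set apart from the nearest other cell by more than 0.625 of the group's range. Chance alone gives about 1 in 20, many of the screened genes were named for their split, and a gene at 0 in most cells is flagged easily.

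Most flags fell on 3 cells. Among the E36 cells, cell 5 stood apart with 6789 genes at 15 RPM, a mitosis score of 6.69 and an interstitium score of 3.59 (scores are means of log2(RPM + 1) over a list). On the log2(RPM + 1) scale it was also apart in PDLIM3 at 0, CDKN1C at 6.70, XAGE5 at 5.98 and IGFBP7 at 5.80. E36 cell 3 stood apart with a chromatin score of 5.66 and with SLC2A1 at 0.98, IKBKAP at 0, XPNPEP1 at 0, TAF7 at 0.98 and GDF3 at 0.57, the last from 1 read. E36 cell 2 had the highest germ cell specification score, 6.24, in both groups, and E36 cell 6 had the lowest C1orf51 value, 4.29.

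Among the DAZL-positive cells, the E47 cell stood apart in scores for Leydig and steroid genes (7.63), cell stress (6.16), coelomic epithelium and Sertoli (3.82), interstitium (4.62) and meiosis (2.25). It was also apart in SLC2A1 at 7.93, EXO1 at 3.87, NKRF at 4.26, GSTA3 at 9.61 and FLJ36031 at 3.20 on the log2(RPM + 1) scale. E55 cell 1 was lowest in the chromatin score, 5.61, and in UTP3 and BACE2, both at 0. CCDC90A was lowest in E36 cell 1 at 3.35, LSG1 was lowest in E36 cell 4 at 2.39, and CENPV was highest in E36 cell 2 at 5.72.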

How the results depend on the processing

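With 1 class of 3 cells, and of 2 at E36, single cells set much of what is seen. No paired analysis was possible because the labels give no cell a number shared between groups. The direction of the DNA replication and of the coelomic epithelium and Sertoli medians, and of DDX4, held in both comparisons under all alternatives run. The mitosis direction did not. The cause of the shifts below was not tested unless the setting itself changes the cells or genes used. Low depth limits genes at 0: 3 reads allow 1.02 RPM in the deepest and 3.71 RPM in the shallowest gonad cell. Thinning and centring changed none of the counts and list medians beyond the spread between cells or by 1.5 times. Centring moved a cell by at most 0.10 and the median of all genes from -0.12 to -0.17, and from -0.18 to -0.26 at E36.

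With a pseudocount of 10 RPM, 573 genes were higher and 1080 lower in DAZL-positive cells, 1029 and 1841 at E36, and 518 and 2773 in the stage comparison, which the pseudocount itself brings about for low genes. At E36 it gave 3.28 for DDX4, 0.44 for meiosis, 0.22 for pluripotency and -1.17 for DNA replication. With the log2 ratio of mean RPM, 3084 genes were higher, DDX4 was 1.16 over all cells, and at E36 meiosis was 1.64 and DNA replication -1.32. With differences of medians, DDX4 was 6.49 and germ cell specification 0.68 over all cells, and at E36 meiosis was 0 and cell stress -0.068. With no filter on low values, E36 medians were 0 for the piRNA pathway, meiosis and interstitium, 0.14 for pluripotency and -0.37 for coelomic epithelium and Sertoli. With a mean of 15 RPM required, 1295 genes were higher over all cells and 1675 at E36, where coelomic epithelium and Sertoli was -2.49 and DNA replication -2.24.

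With DAZL at 5 RPM, over all cells 3405 genes were higher, 262 were higher and 246 lower with no overlap, DDX4 was 6.599, coelomic epithelium and Sertoli -0.074 and arrest and p53 1.11. With DAZL at 50 RPM, over all cells 69 genes were lower with no overlap, late germ cell RNA-binding was 0.15, the piRNA pathway -0.26 and migration -0.17. At E36 it left 468 genes lower with no overlap, DDX4 at 4.61, late germ cell RNA-binding at 0.29, the piRNA pathway at -0.43, meiosis at -0.54 and DNA replication at -1.24.

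Without the 4 cells with somatic transcripts, over all cells 4404 genes were higher, 1465 were higher and 1805 lower with no overlap, DDX4 was 6.69, meiosis 1.33, pluripotency -0.10, mitosis 0.78 and arrest and p53 1.49. At E36, 4018 genes were higher, 1731 were higher and 2250 lower with no overlap, and medians were 1.78 for meiosis, -0.24 for pluripotency, -0.57 for coelomic epithelium and Sertoli, 0.95 for interstitium, 0.39 for mitosis, 1.33 for arrest and p53 and -0.28 for cell stress.

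When 1 cell was left out at a time, over all cells 1752 to 3127 genes were higher, 88 to 307 higher and 170 to 629 lower with no overlap. DDX4 ranged from 3.02 to 6.53, late germ cell RNA-binding from -0.26 to 0.12, meiosis from -0.61 to 0.73, mitosis from -3.19 to -0.99 and arrest and p53 from -1.49 to 0.69. At E36, 623 to 1279 genes were higher and 1041 to 3051 lower with no overlap. E36 medians ranged from -0.16 to 0.20 for late germ cell RNA-binding, 0.35 to 1.55 for the piRNA pathway, -0.12 to 1.62 for meiosis, 0.18 to 0.74 for germ cell specification, -0.13 to 0.77 for pluripotency and -0.62 to 0.14 for DNA methylation. They ranged from -0.26 to 0.40 for chromatin, -1.70 to -0.66 for coelomic epithelium and Sertoli, -3.30 to 0.98 for interstitium, -2.18 to -1.62 for DNA replication, -3.37 to 0.61 for mitosis, -0.21 to 0.96 for arrest and p53, -0.56 to 0.26 for cell stress and -0.15 to 0.18 for oxidative phosphorylation. By stage, 1432 to 2514 genes were higher at E36, and 380 to 762 were higher and 2116 to 4572 lower with no overlap.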
